A study of Mus musculus with 6 samples.

Results

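Mitosis genes encode the machinery that condenses, aligns and separates chromosomes and then divides the cell. The 50 genes described here were given as a list of names and taken from every probe set annotated with exactly 1 gene symbol. Of these, 49 had such a probe set, with 113 probe sets in all, and 48 genes (104 probe sets) were bright enough to be tested, out of 12628 genes tested on these arrays. Ccnb1, which encodes the B-type cyclin that activates Cdk1, was not analysed here. The single probe set of Kif15, a spindle motor, was too dim, with intensities between 5.07 and 13.8 on the GFP-positive arrays and between 2.52 and 6.64 on the GFP-negative arrays.

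The arrays came from mouse embryos at embryonic day 8.5, with a median of 6 somites, that were heterozygous for a GFP reporter of Noto on a mixed 129S3;ICR background, both sexes together. Noto encodes a homeodomain factor made in the node and in the young notochord. Tissue behind the boundary of somites SI and SII was pooled from 23, 39 or 52 embryos, dissociated with trypsin and sorted, which gave about 2600, 4300 and 6600 GFP-positive cells. Each of the 3 pools gave 1 GFP-positive array and 1 GFP-negative array. The GFP-negative cells carried the same allele and were all the other sorted cells of that tissue, a mixture of types whose number per array is not stated. In sorted populations, fewer dividing cells and less of a transcript per cell cannot be told apart.

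Transcripts of many mitosis genes accumulate in the second gap phase and in mitosis and are scarce in resting cells, so their level in a population is commonly read as a measure of how many of its cells are cycling. Many of their promoters carry a short element called the CHR (cell cycle genes homology region), often beside CCAAT boxes, through which the MuvB complexes repress them in resting cells and activate them before mitosis. The ventral layer of the mouse node and the notochord are known as regions where few cells divide.

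The promoters of the members shared these elements, a property that the list of names did not use. Windows of 300 bases, 250 before and 50 after the gene's start, were taken from RefSeq (GRCm38.p6) for 43 of the 50 genes (46 windows). The CHR was searched as TTTGAA or TTCGAA and the CCAAT box as CCAAT, each on both strands. A CHR match was found in 36 of 46 member windows (78.3%), against 19.2% of 32851 windows of all genes. CCAAT was found in 71.7% and 37.4%, and both elements together in 67.4% of member windows and 7.52% of all windows. A match is a description of letters, not a measured binding site. Matches were not compared between members that fell with the pool as a block (below) and the rest. The windows of the 5 members with the smallest adjusted p in that fit are shown with every match in capitals. They lie at chr7:135716330-135716629 (minus strand), chr4:52438971-52439270 (plus), chr19:37376132-37376431 (plus), chr11:40733388-40733687 (minus) and chr19:34922108-34922407 (plus).
Mki67: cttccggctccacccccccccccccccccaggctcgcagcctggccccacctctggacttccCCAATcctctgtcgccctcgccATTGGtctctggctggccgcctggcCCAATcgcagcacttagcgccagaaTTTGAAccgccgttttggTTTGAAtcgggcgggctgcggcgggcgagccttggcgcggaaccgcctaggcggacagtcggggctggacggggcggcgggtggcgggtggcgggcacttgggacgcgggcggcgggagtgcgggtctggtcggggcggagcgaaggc
Smc2: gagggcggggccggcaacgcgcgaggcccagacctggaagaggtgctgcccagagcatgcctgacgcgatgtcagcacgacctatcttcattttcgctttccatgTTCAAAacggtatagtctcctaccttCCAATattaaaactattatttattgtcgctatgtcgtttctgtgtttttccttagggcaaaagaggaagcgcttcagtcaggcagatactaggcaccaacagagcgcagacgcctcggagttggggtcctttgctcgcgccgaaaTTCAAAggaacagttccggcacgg
Kif11: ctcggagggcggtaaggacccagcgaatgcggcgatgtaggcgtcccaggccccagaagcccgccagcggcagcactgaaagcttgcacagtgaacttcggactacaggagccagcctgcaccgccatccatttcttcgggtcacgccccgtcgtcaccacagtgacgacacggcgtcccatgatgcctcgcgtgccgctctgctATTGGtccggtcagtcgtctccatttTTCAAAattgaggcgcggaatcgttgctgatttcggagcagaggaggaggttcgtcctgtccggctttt
Hmmr: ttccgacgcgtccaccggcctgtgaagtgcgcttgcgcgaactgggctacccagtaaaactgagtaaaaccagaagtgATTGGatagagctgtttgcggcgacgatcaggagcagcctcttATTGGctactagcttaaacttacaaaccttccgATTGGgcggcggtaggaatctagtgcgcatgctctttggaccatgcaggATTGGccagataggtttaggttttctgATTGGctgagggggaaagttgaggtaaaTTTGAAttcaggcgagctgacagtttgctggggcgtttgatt
Kif20b: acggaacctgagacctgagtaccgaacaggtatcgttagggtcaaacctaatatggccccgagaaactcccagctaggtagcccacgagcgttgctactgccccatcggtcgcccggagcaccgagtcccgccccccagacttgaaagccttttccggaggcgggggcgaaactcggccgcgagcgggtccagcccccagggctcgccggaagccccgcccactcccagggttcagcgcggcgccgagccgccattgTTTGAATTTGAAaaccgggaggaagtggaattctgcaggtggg
Mki67 had a pair of TTTGAA matches downstream of its CCAAT matches, at -116 and -98 relative to the gene's start. The Kif11 window held ATTGG, the reverse complement of CCAAT, at -45 and TTCAAA, the reverse complement of TTTGAA, at -19. In Hmmr 5 ATTGG matches stood upstream of 1 TTTGAA at 9, and Kif20b had adjoining TTTGAA matches at 8 and 14 with no CCAAT match. Smc2 had TTCAAA at -145 and 27 and CCAAT at -119. No printed match overlaps another. The members without a window here were Smc4, Ccna2, Cdc25c, Aurkb, Incenp, Tpx2 and Kif20a.

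As a group, mitosis genes tended to be lower in GFP-positive cells, and a few members, among them the proliferation marker Mki67 and the kinetochore protein Cenpf, had levels 3.20 and 3.15 times lower. These 2 passed the test with the pool as a block, and not without it. The members were chosen with earlier results of these data known, so the shares below describe the list and the group was not tested. Values were compared as log2(intensity + 32) with limma, with the 3 arrays of each group as replicates, and p-values were adjusted over all 12628 genes. In this fit 1 member, Hmmr, was lower (1.41% of all genes were lower) and 0 were higher (2.6% of all genes were higher). At an unadjusted p under 0.05 in limma, 10 members were lower and 0 higher, against 9.67% and 12% of all genes. Both arrays of a number came from the same pool of embryos, so the pool was also fitted as a block: 10 members were then lower, which is 20.8% of the 48, against 6.76% of all genes, and 0 were higher, against 8.4%. At an unadjusted p under 0.05 with the block, 20 were lower (41.7%, against 15.2% of all genes) and 3 higher (6.25%, against 18%). The 10 were Smc2, Kif20b, Hmmr, Kif11, Mki67, Smc4, Cenpf, Cenpe, Anln and Bub1. All 10 were lower in each of the 3 pools, as 24.9% of all genes were. In 7 of the 10 every GFP-positive array lay below every GFP-negative array, as for 12.2% of all genes. The fit that chose the 10 used the same 3 pairs and favours genes with 1 sign in each pool. The shared sign therefore describes them and is no added support.

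The median log2 fold change of the 48 members was -0.30, against 0.01 over all genes. Within pools 1, 2 and 3 the members' median difference was -0.26, -0.34 and -0.38, against 0.03, 0.02 and -0.001 over all genes. Fitted values were below 0 for 37 members (48.9% of all genes were) and above 0 for 11 (51.1%). The 3 GFP-positive arrays lay entirely below the 3 GFP-negative arrays for 13 members (27.1%, against 12.2% of all genes) and entirely above for 0 (15.6% of all genes). Of the members, 29 were lower in all 3 pools (60.4%, against 24.9% of all genes) and 3, Ccnb2, Cenpa and Ube2c, were higher in all 3 (28.4% of all genes were). Differences between members were wide, with fitted values between -1.68 for Mki67 and 0.50 for Aurka. A fitted value of -1 or below, which is a level at least 2 times lower, was found for 6 members (Mki67, Cenpf, Smc2, Kif20b, Hmmr and Cenpe) and for 3.03% of all genes, and 0 members were higher by as much.

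**Figure D1:**
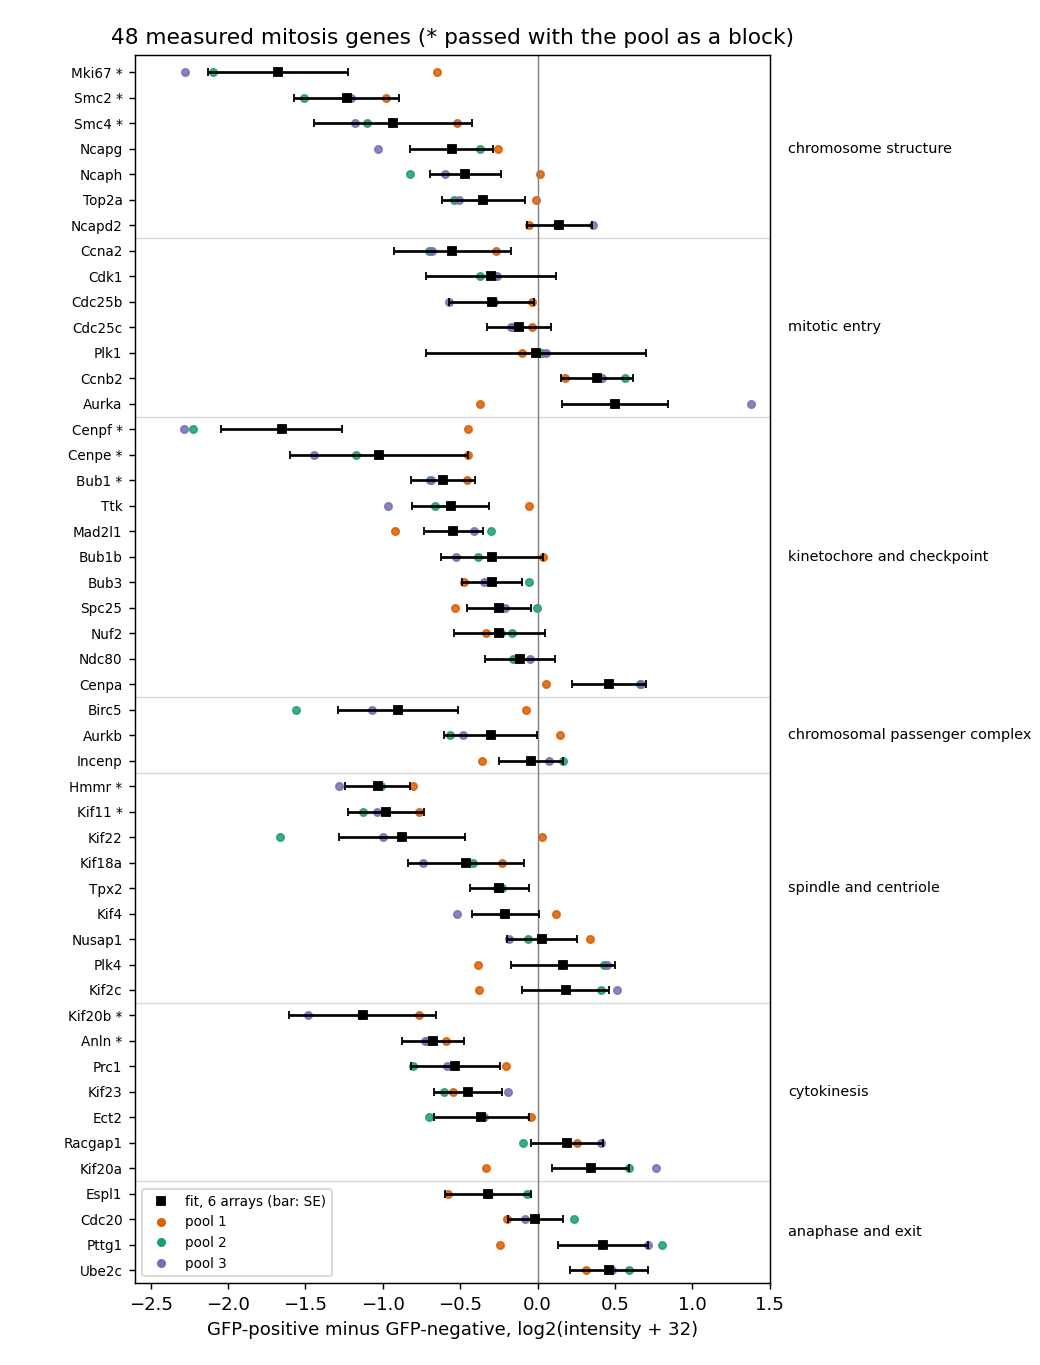
Log2 difference of GFP-positive minus GFP-negative for the 48 measured mitosis genes, grouped by role; black squares are the fit over 6 arrays with its standard error, coloured points the difference within each pool. Most squares lie left of 0, 37 of 48, and pool 1 lies closer to 0 than pools 2 and 3 for each of the 10 genes marked with an asterisk. How often pool 1 lies closer to 0 was not counted over all genes.

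Among genes of chromosome structure, 3 of 7 fell with the pool as a block, against 6.76% of all genes. Role groups were not tested against each other. Signed values from here on are log2 fold changes of GFP-positive over GFP-negative cells on the scale above, with the standard error of the plain fit after ±. Mki67 encodes Ki-67, which coats mitotic chromosomes and marks cycling cells. Its intensity was 1081, 348 and 252 on the GFP-positive arrays of pools 1, 2 and 3, against 1713, 1597 and 1349 on the GFP-negative arrays. All GFP-positive arrays were below all GFP-negative arrays, and the GFP-positive array of pool 1 stood well above the other two. The log2 fold change was -1.68 ± 0.45 (SE), with an adjusted p of 0.0808 in the plain fit and 0.0113 with the block. Smc2 and Smc4 encode the ATPase core of the condensin complexes, which compact chromosomes. Smc2 had 1409, 653 and 671 on GFP-positive arrays, against 2811, 1919 and 1587 on GFP-negative arrays, with no overlap. It changed by -1.23 ± 0.34, with adjusted p = 0.0837 and 0.0043 with the block.

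For Smc4 the values were 2007, 707 and 493 on GFP-positive arrays, against 2895, 1552 and 1159 on GFP-negative arrays. The groups overlapped, both arrays of pool 1 were the highest of their group, and within each pool the GFP-positive array was lower. Its log2 fold change was -0.93 ± 0.51 (adjusted p = 0.321, and 0.0162 with the block). Top2a, the topoisomerase that untangles sister DNA, had 2371, 1433 and 1228 on GFP-positive arrays, against 2383, 2096 and 1757 on GFP-negative arrays. The pool 1 values were almost equal, and Top2a passed neither fit, at -0.35 ± 0.27. The condensin I subunits Ncapg, Ncaph and Ncapd2 passed neither, at -0.55, -0.47 and 0.14.

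Genes that control entry into mitosis had a median of -0.12. Of 7 measured, 0 passed either fit and 0 had an unadjusted p under 0.05 in limma without the block. Over all genes 6.76% were lower and 8.4% higher with the block. At the unadjusted threshold these shares were 9.67% and 12% without it. Cdk1 encodes the kinase that drives mitotic entry. It had 582, 1342 and 1339 on GFP-positive arrays, against 709, 1745 and 1611 on GFP-negative arrays. The arrays of pool 1 were the lowest of each group and the GFP-positive array was lower in each pool, with a log2 fold change of -0.30 ± 0.42 (adjusted p = 0.711, and 0.212 with the block). Ccnb2, a partner cyclin of Cdk1, had 890, 765 and 724 on GFP-positive arrays, against 783, 506 and 535 on GFP-negative arrays. It was higher in each pool, but the groups overlapped, and its value of 0.39 ± 0.23 did not pass (adjusted p = 0.365, and 0.150 with the block). Ccna2, the cyclin of replication and early mitosis, had -0.55, the phosphatases Cdc25b and Cdc25c, which activate Cdk1, had -0.30 and -0.12, and the kinases Plk1 and Aurka had -0.01 and 0.50.

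Of 11 kinetochore and checkpoint genes, Cenpf, Cenpe and Bub1 fell with the block (6.76% of all genes did). Cenpf, a large protein of the outer kinetochore, had 974, 338 and 322 on GFP-positive arrays, against 1341, 1703 and 1688 on GFP-negative arrays. The groups did not overlap, and the difference was small in pool 1 (-0.45) beside pools 2 and 3 (-2.23 and -2.28). The fitted value was -1.65 ± 0.39 (adjusted p = 0.0543, and 0.0175 with the block). Cenpe, the kinetochore motor that carries chromosomes to the spindle equator, had 325, 72.3 and 42.1 on GFP-positive arrays, against 455, 203 and 170 on GFP-negative arrays. Both groups spread widely, with pool 1 the highest of each, and the GFP-positive array was lower in each pool, with a fitted -1.02 ± 0.57 (adjusted p = 0.332, and 0.0211 with the block). Bub1, a kinase of the spindle checkpoint, had 776, 644 and 562 on GFP-positive arrays, against 1073, 1065 and 926 on GFP-negative arrays. The groups did not overlap, and the difference was smaller than for Cenpf, at -0.61 ± 0.21 (adjusted p = 0.137, and 0.0404 with the block).

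The checkpoint gene Bub3 had 4824, 4229 and 4534 on GFP-positive arrays, against 6732, 4392 and 5783 on GFP-negative arrays. These ranges overlapped, and its value of -0.29 ± 0.19 did not pass. The checkpoint genes Mad2l1, Ttk and Bub1b had -0.54, -0.56 and -0.29, and Ndc80, Nuf2 and Spc25, which form one complex that grips microtubules, had -0.11, -0.25 and -0.25. Cenpa, the histone H3 variant that marks centromeres, was the only gene of this group above 0, at 0.46. Mad2l1, Ttk and Spc25 passed neither fit. Their groups did not overlap, with the GFP-positive arrays lower, as for 12.2% of all genes.

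The chromosomal passenger complex corrects faulty attachments of chromosomes to the spindle. Birc5, its subunit survivin, had 383, 417 and 474 on GFP-positive arrays, against 405, 1290 and 1031 on GFP-negative arrays. Only the GFP-negative array of pool 1 was as low as the GFP-positive arrays. The fold change was -0.90 ± 0.39 (adjusted p = 0.222, and 0.0554 with the block). The scaffold Incenp had 3968, 3665 and 3678 on GFP-positive arrays, against 5108, 3263 and 3490 on GFP-negative arrays, with overlapping ranges and a value of -0.04 ± 0.21. The kinase of the complex, Aurkb, had -0.30.

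**Figure D2:**
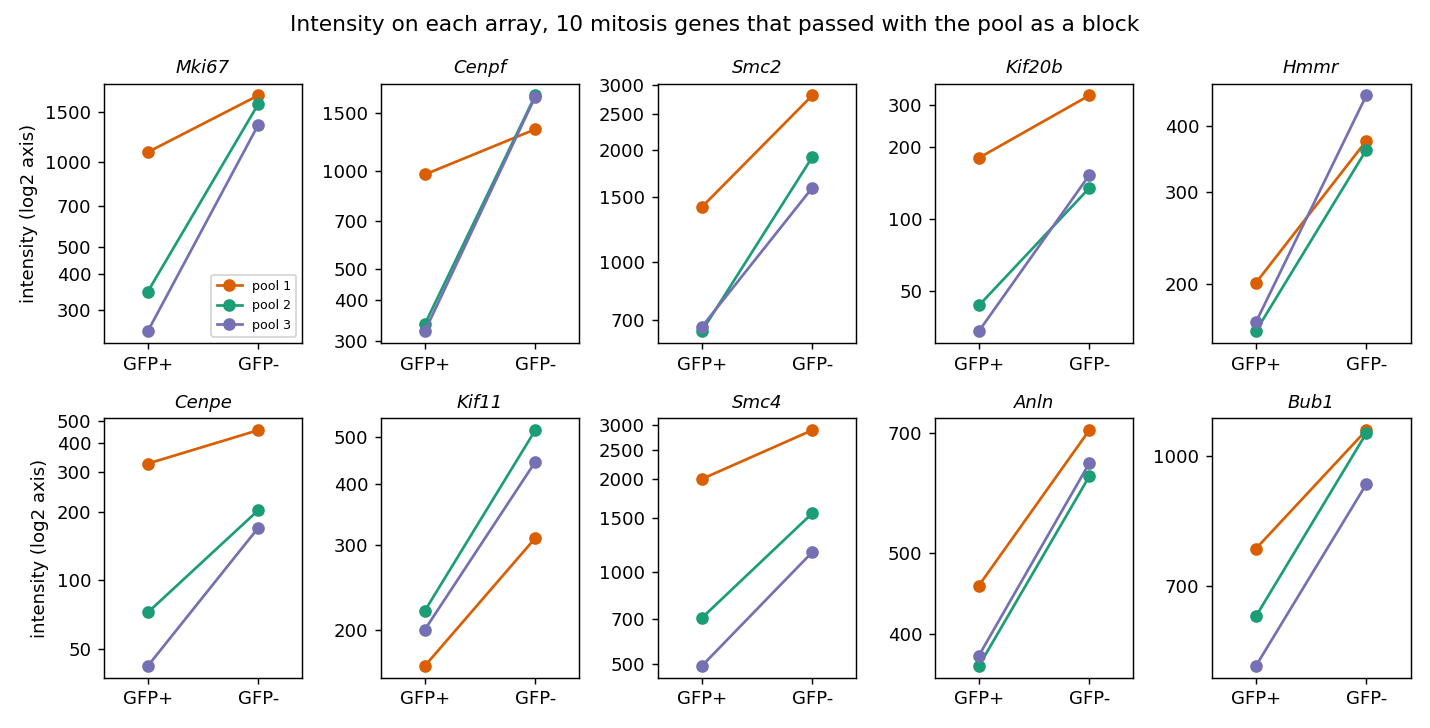
Intensity (log2 axis, own scale per gene) on the GFP-positive and the GFP-negative array of each pool for the 10 members that passed with the pool as a block; lines join arrays of 1 pool. The GFP-positive array is lower in all 3 pools for each gene, which their choice by that fit favours. Pool 1 is above both other pools on the GFP-positive side for all but Kif11.

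Spindle genes included the member that also passed without the block. Hmmr, a microtubule-associated protein of spindle poles that also binds hyaluronan, had 201, 163 and 169 on GFP-positive arrays, against 375, 360 and 458 on GFP-negative arrays. The groups were separated by a wide gap, and pool 1 did not stand apart. Hmmr fell by 1.03 ± 0.21 on the log2 scale (adjusted p = 0.0345, and 0.00938 with the block). This call was lost when any array of pool 2 or 3 was left out (adjusted p between 0.133 and 0.194) or all of pool 2 or pool 3 (0.678 and 0.577), while the value stayed between -1.10 and -0.91. It was also lost with the one probe set of Hmmr whose name carries no s, x or a mark, which had -0.19 ± 0.20 (adjusted p = 0.623). Kif11, the motor that pushes spindle poles apart, had 169, 219 and 200 on GFP-positive arrays, against 310, 518 and 445 on GFP-negative arrays. The groups did not overlap, and it fell with the block, at -0.98 ± 0.24 (adjusted p = 0.0638, and 0.0102 with the block).

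Kif22, a motor that binds chromosome arms, had 882, 918 and 1104 on GFP-positive arrays, against 865, 2974 and 2239 on GFP-negative arrays. The arrays of pool 1 were nearly equal and those of the other pools far apart, and the value of -0.88 ± 0.41 did not pass (adjusted p = 0.253, and 0.0737 with the block). The remaining spindle and centriole genes lay between -0.46 for the motor Kif18a and 0.18 for the microtubule depolymerase Kif2c. Among them Tpx2, which activates Aurora A at the spindle, had -0.25. Its GFP-positive arrays lay entirely below the GFP-negative ones, as for 12.2% of all genes. The chromokinesin Kif4, the spindle protein Nusap1 and Plk4, the kinase of centriole duplication, had -0.21, 0.03 and 0.17. None of these passed either fit.

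Of 7 genes of cytokinesis, the final cleavage of the cell, Kif20b and Anln fell with the block (6.76% of all genes did). Kif20b, a kinesin of the cleavage site, had 179.5, 43.4 and 33.9 on GFP-positive arrays, against 327, 134 and 152 on GFP-negative arrays. Pool 1 was brighter than the other pools in both groups, so the groups overlapped, while each pool showed the lower value in GFP-positive cells. The value was -1.13 ± 0.47 (adjusted p = 0.212, and 0.00913 with the block). Anln, the scaffold of the contractile ring, had 457, 366 and 376 on GFP-positive arrays, against 705, 620 and 643 on GFP-negative arrays. The groups did not overlap and the pools differed little, at -0.59, -0.71 and -0.72, with a fitted -0.68 ± 0.20 (adjusted p = 0.101, and 0.0297 with the block).

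Ect2, an exchange factor needed to form the cleavage furrow, had 1440.4, 771 and 720 on GFP-positive arrays, against 1486, 1273 and 923 on GFP-negative arrays. Its ranges overlapped and its value of -0.36 ± 0.31 did not pass. The microtubule bundler Prc1 and Kif23 had -0.53 and -0.45. Racgap1, which forms the centralspindlin complex with Kif23, had 0.19, and Kif20a, a motor of the central spindle, had 0.34.

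Of 4 genes of anaphase and mitotic exit, 2 were below 0 and 2 above. None passed either fit (0 at an unadjusted p under 0.05 in limma without the block). With the block 6.76% of all genes were lower and 8.4% higher. Their median was 0.20 over all pools and -0.22, 0.41 and 0.20 within pools 1, 2 and 3, and a difference between role groups was not tested. Cdc20, the activator of the anaphase-promoting complex, had 6399, 6023 and 5789 on GFP-positive arrays, against 7353, 5099 and 6138 on GFP-negative arrays. The ranges overlapped, and its value was -0.01 ± 0.18. Ube2c, the ubiquitin-conjugating enzyme of that complex, had 420.5, 694 and 618 on GFP-positive arrays, against 332, 450.5 and 433 on GFP-negative arrays. It was higher in each pool, with 0.46 ± 0.25 (adjusted p = 0.317, and 0.0944 with the block), and the groups overlapped through pool 1. Pttg1, the securin that holds separase inactive, had 0.42, and Espl1, separase itself, had -0.32.

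The arrays of pool 1 stood apart in RNA quality. The 3' over 5' signal ratio of the Gapdh control probe sets was 14.0 on the GFP-positive array and 15.4 on the GFP-negative array of that pool, whereas the remaining 4 arrays had 1.60 to 2.22; for beta-actin it was 14.9 and 22.7, whereas the remaining arrays had 1.90 to 2.75. Averaged over both controls, the log2 ratio was 1.84 ± 1.74 for GFP-positive and 2.15 ± 1.80 for GFP-negative arrays (SD, n = 3 each; two-sided exact permutation test p = 0.5, where 0.1 is the smallest possible). That test ignores the pools. Within each pool the ratio was lower on the GFP-positive array, with log2 values of 3.85, 0.811 and 0.849 on GFP-positive arrays, against 4.22, 0.934 and 1.30 on GFP-negative arrays. On the log2 scale the mean level of members in pool 1 minus that in pools 2 and 3 ran from -2.12 for Plk1 to 1.59 for Cenpe, with 29 members higher and 19 lower in pool 1. For 9 of the 10 genes that fell with the block the level was higher in pool 1, and for all 10 the difference between the sorted groups was smaller there than in either other pool. These counts were not made over all genes, so neither can be called particular to the 10. The part of RNA quality in these differences was not tested.

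Without pool 1, which leaves 2 arrays a group, 22 members were lower (45.8%, against 17.9% of all genes) and 7 higher (14.6%, against 19.5% of all genes). With the block as well, 24 were lower (21.3% of all genes were) and 8 higher (22.4%). The 22 held all 10 that fell with the block. The values of the 22 lay between -2.26 for Cenpf and -0.35 for Mad2l1, and Mki67 had -2.19 ± 0.17 (adjusted p = 7.86e-05). Birc5 and Kif22 were also among them, at -1.31 ± 0.15 and -1.33 ± 0.16. The other 2 kept probe sets of Kif22 were higher in the same fit, at 0.73 (adjusted p = 0.00858) and 0.92 (adjusted p = 0.00901), so the sign for Kif22 depends on the probe set. The 7 that were higher, by the probe set that stood for the gene, were Ccnb2, Aurka, Cenpa, Kif2c, Kif20a, Ube2c and Pttg1, with values between 0.46 for Kif2c and 0.94 for Aurka. Probe sets of Pttg1 and Cenpa disagreed here: both others of Pttg1 were lower, at -0.75 (adjusted p = 0.0296) and -0.77 (adjusted p = 0.0176), and so was 1 of the others of Cenpa, at -0.77 (adjusted p = 0.0253). In pool 1 itself, 4 of these 7 had the opposite sign. Aurka had 528, 1074 and 1123 on GFP-positive arrays, against 692, 753 and 411 on GFP-negative arrays, so that only pools 2 and 3 showed a higher value in GFP-positive cells. Pttg1 had 3247, 3183 and 3003 on GFP-positive arrays, against 3853, 1811 and 1820 on GFP-negative arrays, with the same split between pools.

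**Figure D3:**
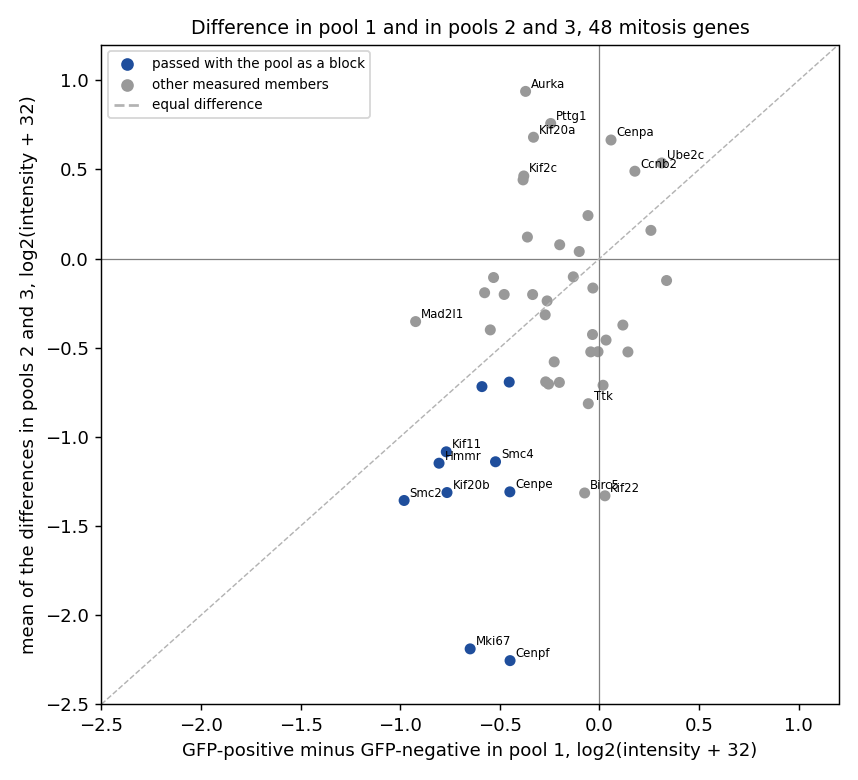
Difference between GFP-positive and GFP-negative in pool 1 (x axis) and mean difference in pools 2 and 3 (y axis), both as log2(intensity + 32), for 48 mitosis genes; blue points passed with the pool as a block and the dashed line marks equal differences. The blue points lie below the line, and Cenpf (-0.45 in pool 1) and Mki67 (-0.65) lie farthest from it; Aurka, Pttg1, Kif20a and Kif2c lie left of the vertical line at 0 and above the horizontal one.

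Several genes had more than 1 probe set, and these did not always move together. Of the 48 members, 31 had other kept probe sets, 56 in all, of which 14, from 10 genes, had the opposite sign to the probe set that stood for the gene. None of these 10 genes fell with the block. For Hmmr all 4 other kept probe sets were below 0, between -0.92 and -0.19, and for Smc2 all 4 were, between -1.60 and -0.34. In Kif22 the probe set that stood for the gene had -0.88 while the others had 0.61 and 0.71, and in Pttg1 it had 0.42 while the others had -0.31 and -0.62. In Tpx2 a pair of other probe sets had -1.32 and -1.33 beside -0.25. Over single probe sets, 0 of 104 were lower (0.55% of all 27821 were) and 0 higher (1.26%) in limma without the block, and 23 were lower and 3 higher at an unadjusted p under 0.05, against 10% and 8.89% of all probe sets. With the block 14 were lower, 13.5% against 4.93% of all probe sets. Without pool 1, 40 of 100 were lower (16.3% of all probe sets were) and 11 higher (14.2%). For Cenpe and Kif11 a different probe set stood for the gene without pool 1; their values from the first probe set were then -1.31 and -1.08.

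**Figure D4:**
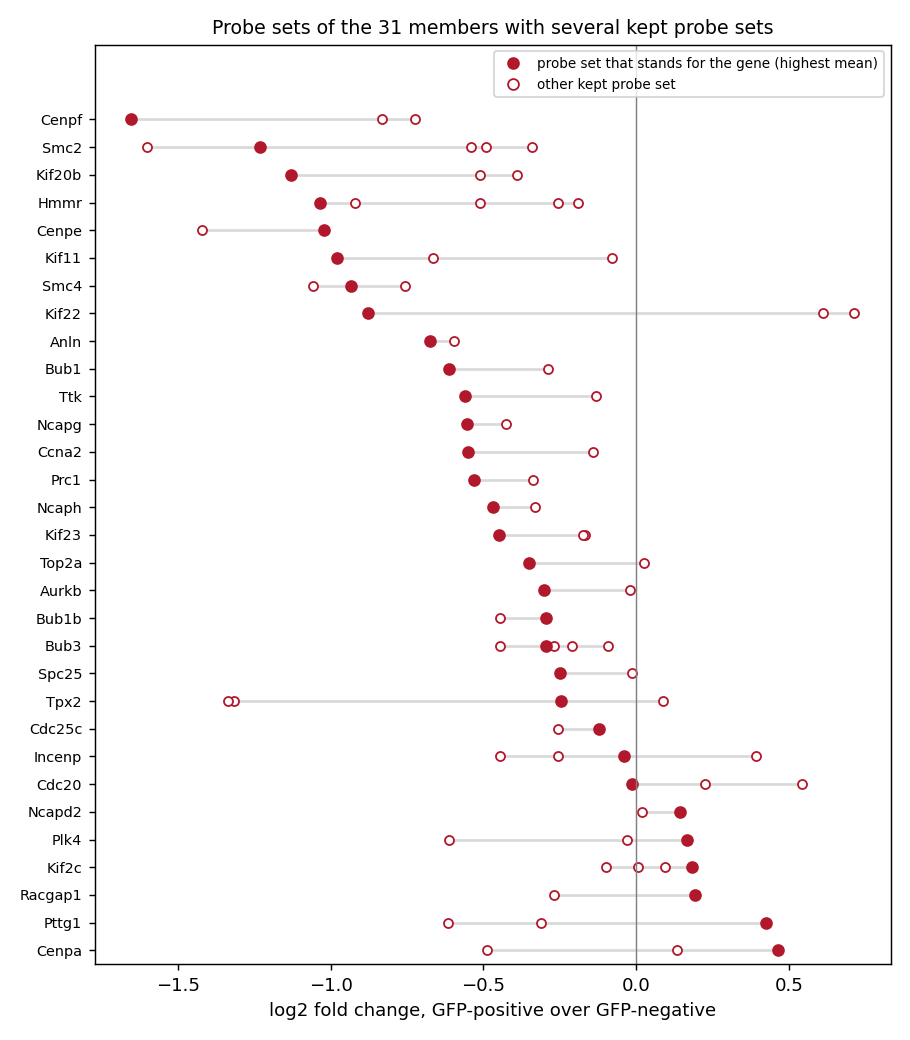
Log2 fold change of every kept probe set of the 31 members that had more than 1; filled circles are the probe set with the highest mean, which stands for the gene, and open circles are the others. All probe sets of Cenpf, Smc2, Kif20b, Hmmr, Cenpe, Kif11, Smc4, Anln and Bub1 lie left of 0, while those of Kif22 and Pttg1 fall on both sides.

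Other genes of mitosis, from a list of 89 that shares no gene with the 50, had a median log2 fold change of -0.15. They were measured on the same 6 arrays and listed with earlier results of these data known, so they are no independent check. Of 88 measured, 3 were lower and 0 higher without the block, against 1.41% and 2.6% of all genes. At an unadjusted p under 0.05 in limma without the block, 15 were lower and 2 higher, against 9.67% and 12% of all genes. With the block 16 were lower (6.76% of all genes were) and 2 higher (8.4%). The 3 were Sgo2a, a protector of centromeric cohesion, at -1.48 ± 0.29, Aspm, a spindle pole protein, at -1.33 ± 0.29, and Arhgap11a, at -1.22 ± 0.26. The 2 that rose with the block were Pimreg, a mitotic regulator, at 0.93 ± 0.25, and Tubg1, the gamma tubulin of centrosomes, at 0.71 ± 0.32.

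Genes of DNA replication had a median of -0.08, with -0.27, 0.05 and 0.11 within pools 1, 2 and 3. Without pool 1 the median was 0.08, and 10 were higher (19.5% of all genes were) and 8 lower (17.9%), of 48 measured. In all 3 pools 0 were lower and 0 higher in limma without the block (1.41% and 2.6% of all genes were). At an unadjusted p under 0.05 without the block, 5 were lower and 1 higher, against 9.67% and 12% of all genes. With the block 0 were higher (8.4% of all genes were) and 4 lower (6.76%). These were the polymerase alpha and primase subunits Pola1 and Prim1, at -0.87 ± 0.23 and -0.73 ± 0.19, the flap nuclease Fen1, at -1.21 ± 0.38, and the origin recognition subunit Orc3, at -0.59 ± 0.20. The difference between mitosis and replication genes was not tested. Of 20 G1 cyclin and CDK inhibitor genes, 1 passed without the block: Cdkn1a, which encodes the CDK inhibitor p21, had 354, 349 and 460.5 on GFP-positive arrays, against 163, 90.3 and 95.7 on GFP-negative arrays. It rose by 1.53 ± 0.25 on the log2 scale (adjusted p = 0.0177), with a wide gap between the groups. In limma without the block 0 genes of this list were lower (1.41% of all genes were, and 2.6% were higher). At an unadjusted p under 0.05 in that fit 4 were higher and 2 lower, against 12% and 9.67% of all genes. With the block 3 were higher, Cdkn1a, Cdkn1c and the cyclin gene Ccnd1 (8.4% of all genes were). In the same fit 3 were lower, Ccnd2, Ccne1 and E2f1 (6.76%). The fitted rise of Ccnd1 was larger than that of Cdkn1a, but Ccnd1 did not pass without the block. The genes that rose and those that fell thus both included cyclins.

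**Figure D5:**
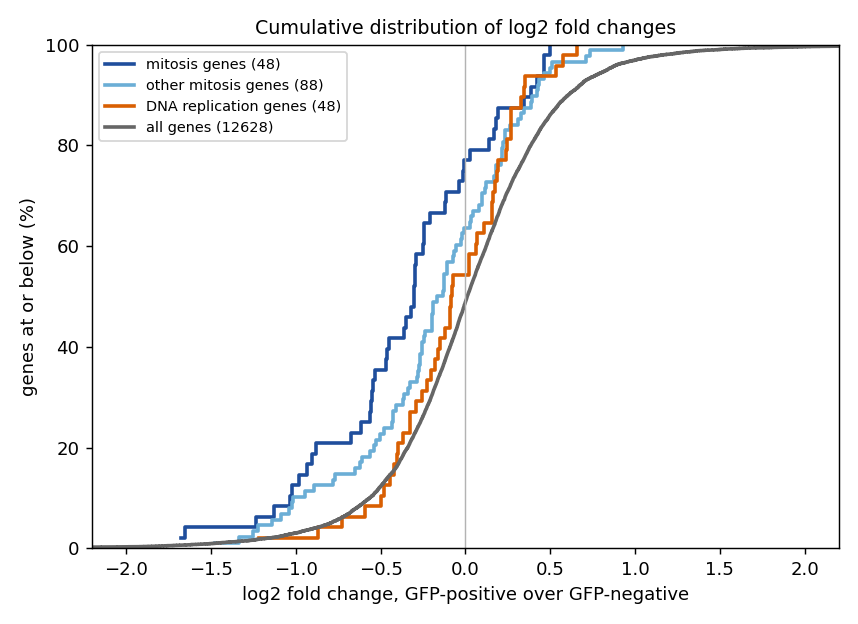
Cumulative share of genes (y axis, percent) at or below each log2 fold change of GFP-positive over GFP-negative cells (x axis) for the 48 mitosis genes, 88 other mitosis genes, 48 DNA replication genes and all 12628 genes. The curve of the mitosis genes lies left of the others over most of its length, with a median of -0.30, against -0.15 for other mitosis genes, -0.08 for replication genes and 0.01 for all genes.

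Members that were lower tended to have a longer genomic span. Across the 48 members, the Spearman correlation between the genomic span in RefSeq and the log2 fold change was -0.45. Within pools 1, 2 and 3 it was -0.19, -0.49 and -0.50. Across 12609 genes of the table it was -0.07, and 0.03, -0.15 and -0.05 within pools 1, 2 and 3. Without pool 1, the median span was 31870 bases for the 22 members that were lower and 8654 for the 7 that were higher. The median was 27650 over the 48 members and 23196 over all genes. These points share their arrays and genes are not independent, so no test was made, and transcript lengths were not used here. The part of gene span in the differences was not tested.

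The sorted groups also differed in markers of cell types. Of 18 measured node and notochord markers, 12 were higher, among them Foxa2 and Shh, and 0 lower, with summed intensities between 14726 and 19181 on GFP-positive arrays and between 2263 and 3239 on GFP-negative arrays. Of 15 endothelial and blood markers, 7 were lower and 0 higher, with sums between 1548 and 7322 on GFP-positive arrays and between 14301 and 31428 on GFP-negative arrays. Of 11 lateral mesoderm markers, 7 were lower and 0 higher, with sums between 473 and 758 on GFP-positive arrays and between 2700.3 and 6137 on GFP-negative arrays. Presomitic markers were higher for 6 of 14 and gut endoderm markers, a list that shares Foxa1 and Foxa2 with the node list, for 6 of 10. In both lists 0 were lower. Neural plate markers were higher for 0 and lower for 1 of 10, surface ectoderm markers for 1 and 3 of 10, and germ cell markers for 0 and 1 of 9. All these counts are without the block, where 2.6% of all genes were higher and 1.41% lower. With the block 7 gut markers were higher and 1, Hnf4a, lower (8.4% and 6.76% of all genes were). In that fit 14 node and notochord and 12 presomitic markers were higher and 0 lower. The endothelial and blood list had 13 lower and the lateral mesoderm list 8, with 0 higher in both. Neural plate markers were higher for 2 and lower for 4, surface ectoderm markers for 2 and 4, and germ cell markers for 0 and 3. Noto itself and T were not analysed here, and no measured marker was listed at 0 on any array. The summed intensity of the 48 members was between 44367 and 48854 on GFP-positive arrays and between 53802 and 62012 on GFP-negative arrays. Such a sum gives most weight to bright genes, among them Cdc20 and Bub3, which passed neither fit. The split was not particular to the members. Sums of DNA replication genes were 66188 to 74469 on GFP-positive arrays, against 78212 to 88535 on GFP-negative arrays. Those of other mitosis genes were 59798 to 60663, against 68397 to 75564. The part of cell composition in the differences of mitosis genes was not tested.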

How the data were processed

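The authors deposited one intensity per probe set for each of the 6 arrays, made with GCOS 1.4, per the submitters' processing notes; RNA was amplified with a two-cycle kit, per the labels' protocols. All arrays shared a trimmed mean of 150.001 (2% trimmed at each end). Precision rests on 3 arrays a group. Of 45037 probe sets other than controls, 34945 had 1 symbol in the platform annotation, 34754 of them were matched to RefSeq (GRCm38.p6) by gene identifier, and 0 symbols changed. There were 0 unused columns.

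Values were taken to log2(intensity + 32), a scale on which dim genes show too small a change. Probe sets at or above the 40th percentile of an array on 3 or more arrays were kept (27821). limma 3.58.1 (R 4.3.3) was run on them with group alone in the model and a trended variance. The kept probe set of highest mean stood for its gene. Benjamini-Hochberg adjustment ran over 12628 genes, with a threshold of 0.05. The fit was tested on simulated data. Alternatives were the offset, normalization, filter, variance model, pool as a block, probe set rule, and each array or pool left out.

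The labels tie same-numbered arrays to 1 pool of embryos, so numbers pair the samples; deviations from group means within pools 1, 2 and 3 correlated at 0.542, 0.286 and 0.436. Members and lists were chosen with earlier results of these data known. Members given with every array's value were those that passed either fit, the 8 with the largest change, and, in each role group, the one with the highest mean and the one with the smallest p; Aurka and Pttg1 were added after their values were seen. Promoter windows read in the gene's direction: for minus-strand genes, TATAAA stood near the usual place before the start in 299 windows and at the mirrored place in 65.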

Additional observations from a re-analysis of the deposited data

How the results depend on the processing

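The direction of the group held under each alternative tried: the median log2 fold change of the 48 members stayed below 0, between -0.41 and -0.25 when single arrays or pools were left out (-0.41 without GFP-negative array 1) and -0.39 without pool 1 with the replicate block. The number of members that passed did not hold. Against 1 lower gene in the plain fit, 10 were lower with the replicate block (pool), 24 without pool 1 with the block, between 0 and 22 when arrays or pools were left out, and 0 when probe sets with no s, x or a mark were preferred. Against 0 higher genes, 8 were higher without pool 1 with the block and between 0 and 7 when arrays or pools were left out. Over probe sets, against 0 lower, 1 was lower with an offset of 16, 1 without the variance trend, 14 with the block, 43 without pool 1 with the block, and 0 to 40 when arrays or pools were left out. Against 0 higher probe sets, 12 were higher without pool 1 with the block and 0 to 11 when arrays or pools were left out.

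Alternatives were run for 20 of the genes given with every array's value, which leaves out Aurka and Pttg1. The signs of 5 of the 20, none of which passed the plain fit, turned. Incenp had 0.018 with quantile normalization, 0.12 without pool 1 with or without the block, 0.39 with unmarked probe sets, and -0.16 to 0.16 when arrays or pools were left out. Cdc20 had 0.14 with quantile normalization, 0.077 without pool 1 with or without the block, 0.25 as a mean over probe sets, 0.22 with unmarked probe sets, and -0.15 to 0.12 when arrays or pools were left out. Cdk1 had -0.70 to 0.086 when arrays or pools were left out. Kif22 had 0.15 as a mean over probe sets and 0.61 with unmarked ones, and Top2a had 0.025 with unmarked ones. Outside the 20, Plk1 had 0.039 and Nusap1 -0.12 without pool 1, against -0.01 and 0.03. Unmarked probe sets of Pttg1 and Plk4 had -0.31 and -0.61, against 0.42 and 0.17 for the probe sets that stood for these genes. The causes were not tested. Refitting the variance over gene rows, an alternative chosen after seeing the data, called 372 higher and 216 lower genes in limma, against 328 and 178. Over all genes 1061 were higher and 854 lower with the block, 226 and 92 with no filter, 191 and 107 with a filter on all 6 arrays, 2296 and 2100 without pool 1, 3 and 0 without pool 2, 25 and 1 without pool 3, and between 54 and 1276 higher and 8 and 1225 lower with 1 array left out.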
